A study of Caenorhabditis elegans with 6 samples.

Results

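The 9 genes described here encode chaperones, proteases and regulators of the mitochondrial stress response of Caenorhabditis elegans. They are hsp-6, hsp-60, dnj-10, clpp-1, lonp-1, spg-7, atfs-1, dve-1 and ubl-5. They were taken by gene symbol, 1 array row per gene, from the 25478 named genes of the arrays; each of the 9 had a single row, so no choice between rows was needed. The tested animals were wild-type N2 hermaphrodites that had grown on bacterial plates for 48 h to the L4 larval stage and were then held for 24 h at 20 °C in 50% M9 salt buffer with 500 µg/mL of C-SPIONs, nanoparticles of superparamagnetic iron oxide with a citrate coat. The control animals had the same genotype, growth and 24 h in 50% M9 without particles, so both groups share the day in buffer. There were 3 arrays in each group, and each array holds total RNA of whole animals as a log2 signal per transcript cluster, the set of probes that stands for 1 transcribed locus. No group with citrate alone was used here, so coat and iron core cannot be told apart.

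Most mitochondrial proteins are made in the cytosol, imported unfolded and folded in the matrix by the chaperones HSP-6 (mitochondrial HSP70) and HSP-60 (the mitochondrial chaperonin), while matrix and inner-membrane proteases remove proteins that fail to fold. When import or folding is disturbed in worms, the transcription factor ATFS-1, which is otherwise imported and degraded, enters the nucleus, and together with the homeodomain protein DVE-1 and the ubiquitin-like protein UBL-5 it raises transcription of chaperone and protease genes. This is the mitochondrial unfolded protein response, and the hsp-6 and hsp-60 promoters are its usual reporters in C. elegans. Much of the control of ATFS-1 and DVE-1 is by location and stability of the protein, which an array of RNA does not measure.

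The 9 genes differed among themselves in their values. Of these, hsp-60, lonp-1 and spg-7 were at +0.88, +0.77 and +0.60 on the log2 scale in C-SPION animals relative to control animals, and in these 3 the arrays of the groups did not overlap. The classical reporter partner of hsp-60, hsp-6, was at +0.20, and the regulators atfs-1, dve-1 and ubl-5 were at +0.04, -0.33 and -0.03. By limma, with Benjamini-Hochberg adjustment over all tested clusters, 0 of the 9 passed an adjusted p of 0.05, and the smallest adjusted p among them was 0.303. The same test called 0% of 26192 clusters, with 0.201 as the smallest adjusted p. At an unadjusted p under 0.05 the count was 3 of 9, all higher, where 5.22% of all clusters were higher and 7.3% lower at that level. The groups did not overlap in 3 of 9 genes, all higher, and this was so for 9.4% of all clusters in that direction and 9.24% in the other. A positive difference was found in 7 of 9 genes and in 53.6% of all clusters. The median difference of the 9 was +0.16, beside +0.037 over all clusters. These counts describe 9 genes of the same few animals and are no test of the group. Without C-SPION 2 or C-SPION 3, 1 gene in place of 3 had an unadjusted p under 0.05. Over all 26192 clusters the count at that level, in either direction, was 3280 in the main fit and moved as well. It was 4129, 2442 and 1988 without C-SPION 1, 2 and 3, and 2692, 2363 and 3138 without control 1, 2 and 3. The median was +0.065 without control 1, +0.093 without C-SPION 3 and +0.25 without control 2. After quantile normalisation the groups lay apart in 5 genes, hsp-6 higher and dve-1 lower being the added ones. The share of all clusters apart was counted for the main fit only, so that number has no share beside it.

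**Figure D1:**
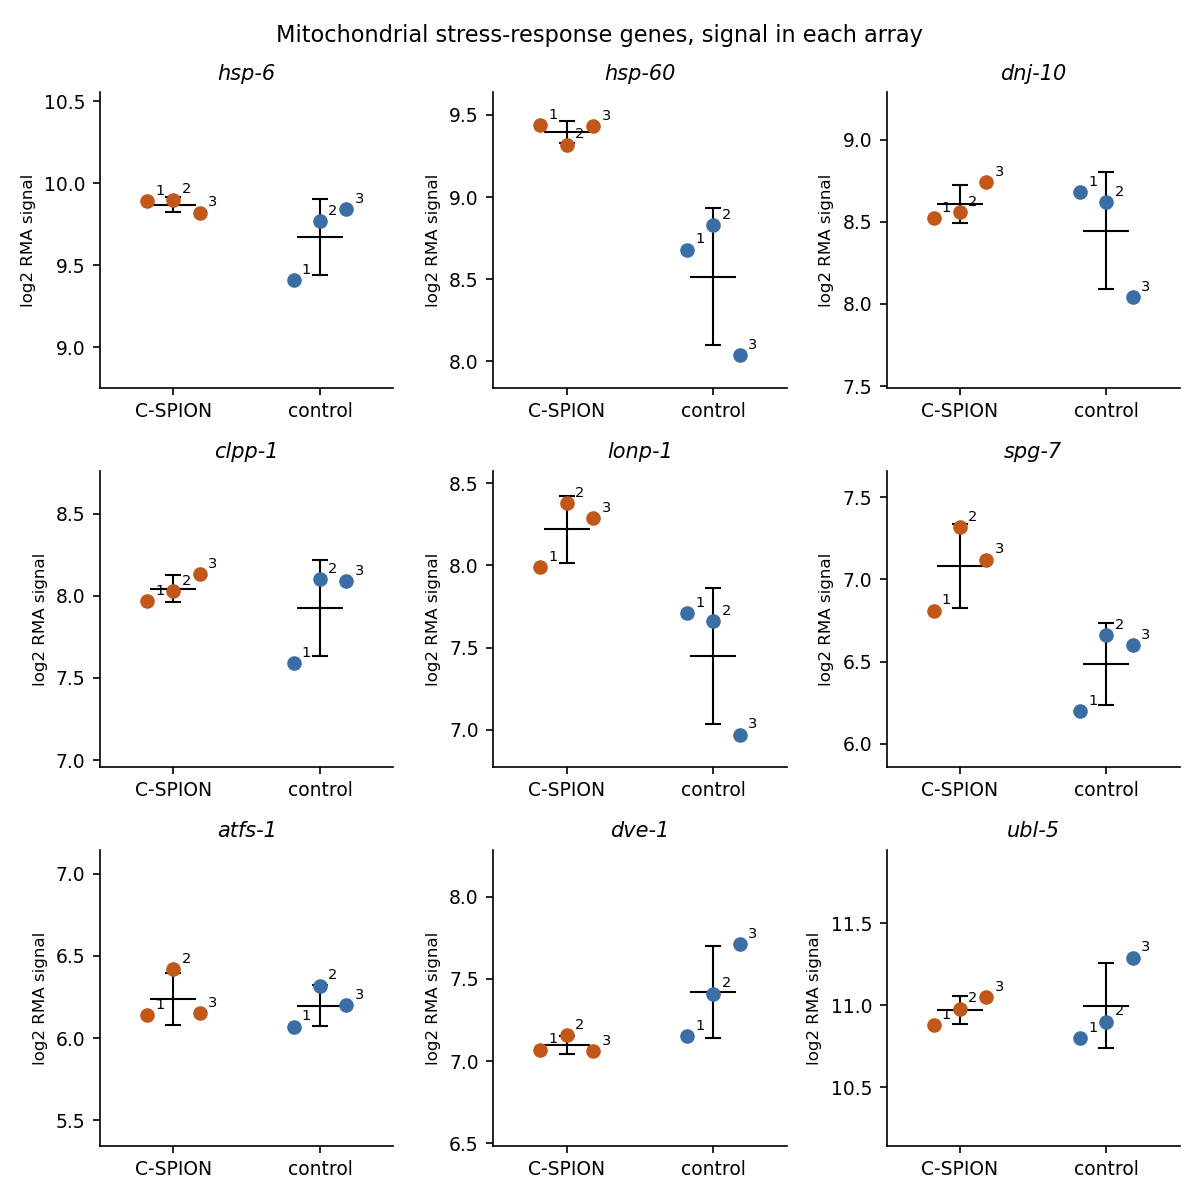
Log2 RMA signal (vertical axis) of each of the 9 genes in the 3 C-SPION arrays (orange, left) and the 3 control arrays (blue, right); numbers beside the points are replicate numbers, horizontal bars are group means and whiskers 1 SD, and every panel spans the same height. In hsp-60, lonp-1 and spg-7 the orange points lie above all blue points, and control 3 is the lowest array for hsp-60, lonp-1 and dnj-10.

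Chaperones come first. The gene hsp-60 (cluster 18516613) encodes the chaperonin that folds proteins in a closed chamber in the matrix. Its log2 signal was 9.44, 9.32 and 9.43 in C-SPION arrays 1 to 3, against 8.68, 8.83 and 8.04 in control arrays 1 to 3. The C-SPION arrays were close to each other and above every control array, and control 3 was far below the other 2 controls. The means were 9.40 ± 0.07 with C-SPIONs and 8.52 ± 0.42 in controls (SD, n = 3 each), a difference of +0.88 or 1.84-fold (adjusted p = 0.303 by limma, 95% interval 0.28 to 1.48). The gap therefore exceeded the spread between arrays, but not the threshold over all clusters. Its difference was +0.64 without control 3 and +1.04 without control 2.

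The gene hsp-6 (cluster 18584921) encodes the matrix HSP70, which pulls in and folds incoming proteins. Its signal was 9.89, 9.90 and 9.82 in C-SPION arrays, against 9.41, 9.77 and 9.84 in control arrays. The groups overlapped, because control 3 stood above C-SPION 3, and control 1 alone was low. The difference was +0.20 (adjusted p = 0.717 by limma, 95% interval -0.28 to 0.67), and +0.065 without control 1. The interval includes 0 and also moderate increases, so these arrays do not show that hsp-6 was unaffected.

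Because hsp-6 and hsp-60 are read as a pair in reporter work, the log2 ratio of hsp-60 to hsp-6 was taken within each array, a comparison chosen after their values were seen. It was -0.45, -0.58 and -0.39 in C-SPION arrays, against -0.73, -0.94 and -1.80 in control arrays. The groups did not overlap, and the mean ratio was -0.47 ± 0.10 with C-SPIONs and -1.16 ± 0.57 in controls (SD, n = 3 each). The difference of +0.68 had p = 0.1 in an exact two-sided permutation test over the 6 arrays, and no smaller p is possible with 3 in each group. Groups that do not overlap always give this p, so the test adds nothing to the values above. It was +0.36 without control 3.

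The third chaperone gene, dnj-10 (cluster 18511128), encodes a J-domain protein, the type of cofactor that hands substrates to HSP70. Its signal was 8.52, 8.56 and 8.74 in C-SPION arrays, against 8.68, 8.62 and 8.04 in control arrays. Controls 1 and 2 lay within the C-SPION range and only control 3 lay below it. The difference was +0.16 (adjusted p = 0.810 by limma, 95% interval -0.40 to 0.72) and turned to -0.043 without control 3.

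Of the 3 protease genes, lonp-1 and spg-7 had groups that lay apart and clpp-1 had groups that overlapped. The gene lonp-1 (cluster 18465999) encodes the Lon protease, which degrades oxidised and misfolded proteins in the matrix. Its signal was 7.99, 8.38 and 8.29 in C-SPION arrays, against 7.71, 7.66 and 6.97 in control arrays. All C-SPION arrays were above all control arrays, and control 3 was again the lowest. The means were 8.22 ± 0.20 with C-SPIONs and 7.45 ± 0.41 in controls (SD, n = 3 each), a difference of +0.77 or 1.71-fold (adjusted p = 0.339 by limma, 95% interval 0.15 to 1.40), and +0.54 without control 3.

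The gene spg-7 (cluster 18461949) encodes a subunit of the m-AAA protease, which faces the matrix from the inner membrane; its depletion is a standard way to set off the response in worms. Its signal was 6.81, 7.32 and 7.12 in C-SPION arrays, against 6.20, 6.66 and 6.60 in control arrays. The groups did not overlap, though C-SPION 1 was only a little above control 2, and here control 1, not control 3, was the lowest. The means were 7.08 ± 0.26 with C-SPIONs and 6.49 ± 0.25 in controls (SD, n = 3 each), a difference of +0.60 or 1.51-fold (adjusted p = 0.375 by limma, 95% interval 0.047 to 1.15).

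The gene clpp-1 (cluster 18507625) encodes the proteolytic subunit of the matrix ClpXP protease, which in worms also feeds the signal that starts the response. Its signal was 7.97, 8.03 and 8.13 in C-SPION arrays, against 7.59, 8.10 and 8.09 in control arrays. Controls 2 and 3 lay inside the C-SPION range, and control 1 was low. The difference was +0.12 (adjusted p = 0.853 by limma, 95% interval -0.40 to 0.63) and turned to -0.052 without control 1.

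**Figure D2:**
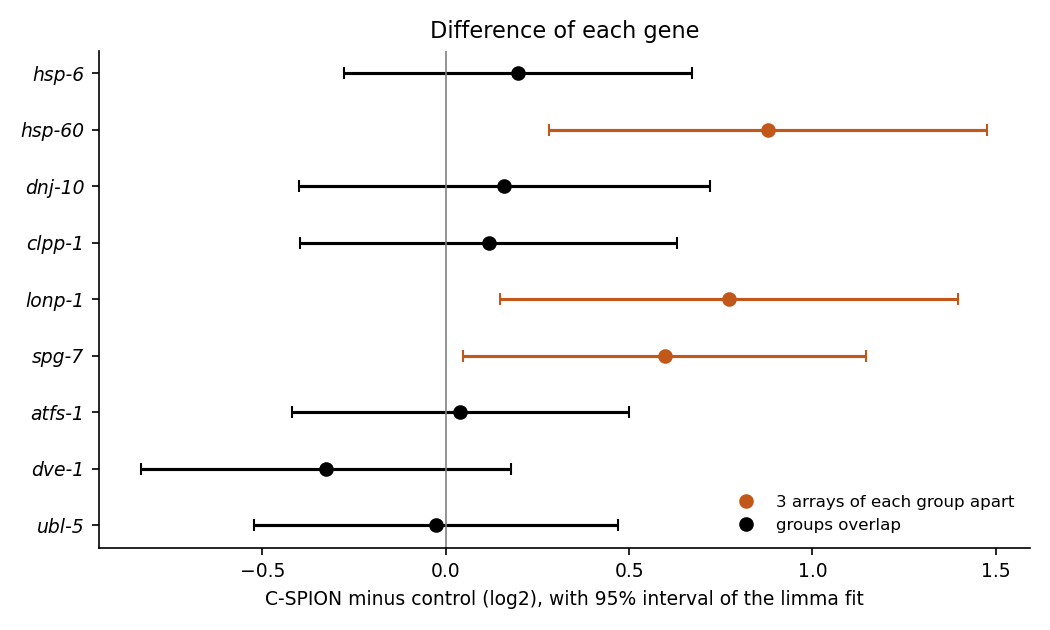
Difference of C-SPION minus control animals on the log2 scale (horizontal axis) for each gene, with the 95% interval of the limma fit as a bar; orange marks genes whose 3 arrays of each group lay apart. The intervals of hsp-60, lonp-1 and spg-7 lie above 0 and those of the other 6 genes include 0, before any adjustment for the number of clusters.

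The regulators included the 2 differences nearest to 0 and the most negative one. The gene atfs-1 (cluster 18580783), for the transcription factor that carries the signal to the nucleus, had signals of 6.14, 6.42 and 6.15 in C-SPION arrays, against 6.07, 6.32 and 6.20 in control arrays. The groups lay over each other, with a difference of +0.04 (adjusted p = 0.951 by limma, 95% interval -0.42 to 0.50) that turned to -0.052 without C-SPION 2 and to -0.023 without control 1.

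The gene ubl-5 (cluster 18469937), for the small ubiquitin-like partner of DVE-1, had signals of 10.88, 10.98 and 11.05 in C-SPION arrays, against 10.80, 10.90 and 11.29 in control arrays. The C-SPION arrays lay inside the control range. The difference was -0.03 (adjusted p = 0.970 by limma, 95% interval -0.52 to 0.47), and its sign turned to +0.047 after median centring, to +0.12 without control 3 and to +0.018 without C-SPION 1. Median centring also raised the median over all clusters, from +0.037 to +0.11.

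The gene dve-1 (cluster 18633916), for the homeodomain protein that binds chaperone promoters under mitochondrial stress, had signals of 7.07, 7.16 and 7.06 in C-SPION arrays, against 7.15, 7.41 and 7.71 in control arrays. C-SPION 2 stood just above control 1, and otherwise every C-SPION array was below every control array. The means were 7.10 ± 0.06 with C-SPIONs and 7.42 ± 0.28 in controls (SD, n = 3 each), a difference of -0.33 (adjusted p = 0.559 by limma, 95% interval -0.83 to 0.18), and -0.18 without control 3.

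Across the 9 genes the control arrays were more scattered than the C-SPION arrays. The SD was larger in controls for 7 of 9 genes, beside 48.9% of all 25478 named genes. The lowest value of a gene fell in control 1 for 5 genes and in control 3 for 3. The pattern over the 6 arrays was compared by the root mean square distance between genes, each centred on its own mean. Over the 6 arrays hsp-60 was at a distance of 0.168 from lonp-1, hsp-6 was at 0.0914 from clpp-1, and dve-1 was at 0.718 from hsp-60, the widest gap among the 9. The array that was low thus differed between genes, control 3 for hsp-60, lonp-1 and dnj-10 and control 1 for hsp-6, clpp-1 and spg-7. By the same distance over 6 arrays, the named genes most like hsp-60 were nmy-2, a nonmuscle myosin gene, at 0.0399, egc-2 at 0.072 and htp-3, a meiotic chromosome axis gene, at 0.0799. Those most like hsp-6 were F38G1.3 at 0.0213, F35D11.4 at 0.0285 and T09B4.19 at 0.0298, and those most like atfs-1 were sru-7 at 0.0298 and T04C12.31 and Y32B12B.8 at 0.0365 each. The signals of sru-7, T04C12.31 and Y32B12B.8 were low, 2.30 to 2.96, against 6.07 to 6.42 for atfs-1. T09B4.19, at 3.52 to 4.03, and T04C12.31 are annotated as noncoding RNA. The distance compares changes between arrays and not signal levels. With 6 arrays and 25478 genes to choose from, near patterns are easily found.

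Some tissue marker lists also leaned in 1 direction between the groups, though 0 genes of any tissue list passed the adjusted threshold. All 24 genes of a germ line list had positive differences, 12 of them with an unadjusted p under 0.05, beside 5.22% of all clusters in that direction, and 0 past the adjusted threshold. That count was 6 without C-SPION 3 and 8 without C-SPION 2, where the count over all clusters was lower too. The median was +0.73, or +0.47 without control 3, where 22 of the 24 were positive. Relative to the control mean, the germ line list stood at +0.44, +0.79 and +0.77 in C-SPION arrays 1 to 3 and at +0.17, +0.23 and -0.40 in control arrays 1 to 3. On the same scale hsp-60 stood at +0.92, +0.80 and +0.91 in C-SPION arrays and at +0.16, +0.31 and -0.48 in control arrays, and lonp-1 at +0.54, +0.93 and +0.84 against +0.26, +0.21 and -0.48. Control 3 was thus the lowest array for the germ line list, hsp-60 and lonp-1 alike, whereas spg-7 was lowest in control 1. All 13 oocyte genes had positive differences (median +0.71), 12 of 13 neuron genes had negative ones (median -1.03), 12 of 13 muscle genes had negative ones (median -0.57, or -0.37 without control 2), and 0 of these passed. The intestine list had a median of -0.058, which was -0.02 without C-SPION 3 and turned to +0.093 without control 3 and to +0.015 after median centring. With that centring the median over all clusters rose too, from +0.037 to +0.11. The hypodermis list had a median of +0.26, or +0.15 without C-SPION 2. The sperm list, with 8 of 15 genes measured singly, had a median of +0.58. The part of tissue make-up in the values of hsp-60 and lonp-1 was not tested, and in RNA of whole animals more cells of a type and more RNA per cell cannot be told apart.

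**Figure D3:**
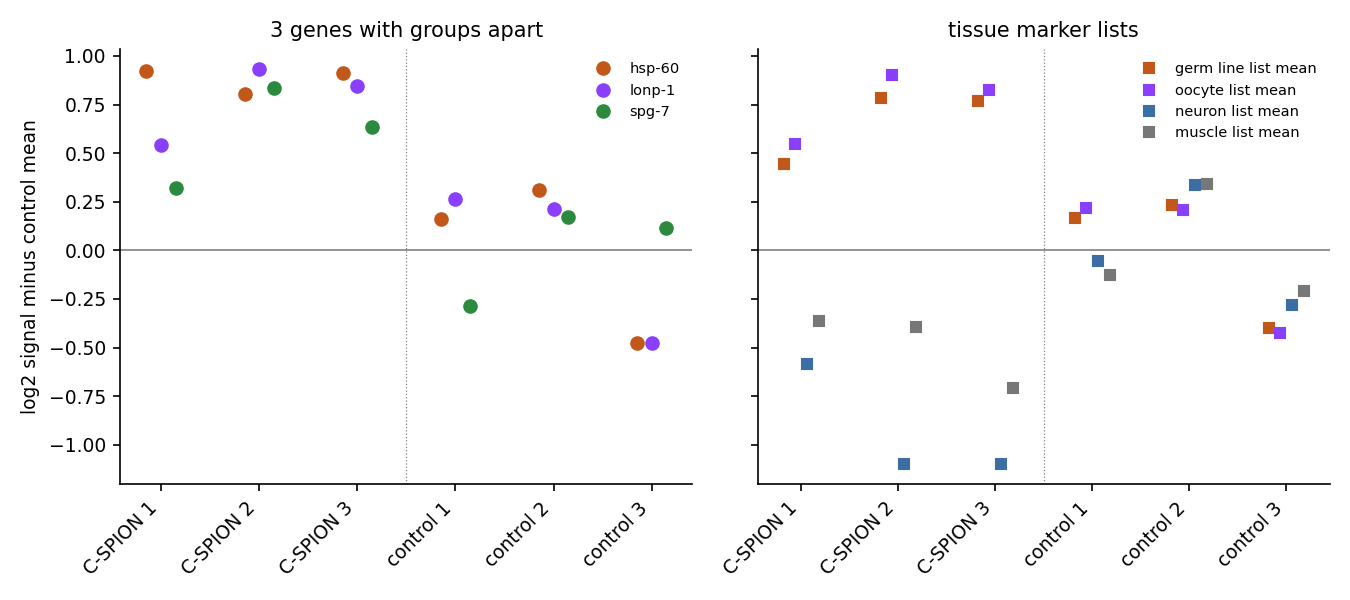
Log2 signal minus the mean of the 3 control arrays (vertical axis) in each array (horizontal axis, C-SPION left of the dotted line, control right); the left panel holds hsp-60, lonp-1 and spg-7, the right panel the mean of 4 tissue marker lists. Control 3 is at -0.48 for hsp-60 and lonp-1 and at -0.40 for the germ line list, while the neuron list is at -0.58 to -1.10 in the C-SPION arrays.

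The rest of the mitochondrial quality-control machinery was read from lists of other genes, and 0 genes of any of these lists passed the adjusted threshold. The list of other proteases and prohibitins had 8 of 11 measured genes with positive differences and a median of +0.37. Of the 11, 4 had an unadjusted p under 0.05, all higher, beside 5.22% of all clusters in that direction. That count was 1 without C-SPION 2, C-SPION 3, control 1 or control 3, where the count over all clusters was lower too. The median was +0.22 without control 3 and +0.56 without control 2. Its leading genes were ymel-1, for the i-AAA protease of the inner membrane, ppgn-1, a second m-AAA protease gene, and phb-1, for a prohibitin that forms rings around such proteases. The signal of ymel-1 was 7.10, 7.29 and 7.29 in C-SPION arrays, against 6.62, 6.73 and 6.37 in control arrays. The groups were well apart, and the difference was +0.65 (adjusted p = 0.313 by limma, 95% interval 0.19 to 1.12). The signal of ppgn-1 was 6.62, 7.15 and 7.59 in C-SPION arrays, against 6.35, 6.52 and 6.09 in control arrays, a difference of +0.80 (limma adjusted p = 0.352). For phb-1 the signal was 10.86, 10.85 and 10.87 in C-SPION arrays, against 10.42, 10.52 and 10.19 in control arrays, a difference of +0.48 (limma adjusted p = 0.375). The list also holds lonp-2, a peroxisomal Lon protease gene, at -0.05.

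Both m-AAA genes, the i-AAA gene and lonp-1 thus had positive differences with the groups apart, in 4 separate clusters, while the groups of clpp-1 overlapped. These 4 were put together after their values were seen, and 9.4% of all clusters were apart and higher. Of the 11 genes on the list, 3 had negative differences, immp-1 at -0.36, immp-2 at -0.11 and lonp-2 at -0.05. Whether the proteases differ from clpp-1 in their response was not tested.

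The list of other mitochondrial chaperones and cofactors had 5 of 7 measured genes with positive differences, a median of +0.14 (+0.25 without C-SPION 1) and 0 with an unadjusted p under 0.05. Its leading genes were hsp-75, for the mitochondrial HSP90, at +0.45, the unnamed gene D2030.2 at +0.31 and bcs-1, for an assembly factor of respiratory complex III, at +0.24. The list of regulators of the response had 8 of 12 genes with positive differences and a median of +0.27. In it 1 gene, higher, had an unadjusted p under 0.05, beside 5.22% of all clusters in that direction. That count of higher genes was 0 without C-SPION 2, C-SPION 3, control 1 or control 3, 2 without control 2 and 3 without C-SPION 1. Over all clusters the count also rose without C-SPION 1, and it fell without each other array. The gene was lin-65, for a nuclear factor that acts with DVE-1, at 6.86, 7.38 and 7.71 in C-SPION arrays, against 6.48, 6.71 and 6.48 in control arrays. The groups did not overlap for lin-65, and the difference was +0.76 (adjusted p = 0.339 by limma, 95% interval 0.14 to 1.38). The histone methyltransferase gene met-2, whose product works with LIN-65, was at +0.75 with overlapping groups (limma adjusted p = 0.407), and hda-1, for a histone deacetylase, at +0.45 (limma adjusted p = 0.421). The gene with groups apart and lower in this list, atf-4, named after its values were seen, averaged 9.13 ± 0.19 in C-SPION arrays and 9.56 ± 0.19 in control arrays (SD, n = 3 each). It encodes a transcription factor of the integrated stress response, and its difference was -0.43 (limma adjusted p = 0.448). In the same list gcn-2, also named after its values were seen, was at +0.66 with overlapping groups (limma adjusted p = 0.448). Groups lay apart and higher in 3 genes of the list and apart and lower in 1, beside 9.4% and 9.24% of all clusters.

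Of 19 measured import genes, 13 had positive differences and 5 negative ones, tomm-7 being equal in both groups, with a median of +0.06 that was +0.15 without C-SPION 1 and turned to -0.0083 without control 1. Only immt-2, for a scaffold of inner-membrane folds, had an unadjusted p under 0.05 in this list (0 genes without C-SPION 2). Of all clusters 5.22% were higher at that level in the main fit, and the count in either direction was lower without C-SPION 2. The signal of immt-2 was 7.98, 8.14 and 7.99 in C-SPION arrays, against 7.47, 7.50 and 6.69 in control arrays. Its difference was +0.82 (limma adjusted p = 0.333), with control 3 again the lowest array. The outer-membrane channel gene tomm-40 was at +0.44 and hsp-75, which stands on this list too, at +0.45. The list of mitochondrial dynamics and mitophagy genes was divided, with 8 of 14 positive and 6 negative and 0 with an unadjusted p under 0.05. Its median was +0.065, or +0.18 without C-SPION 1, +0.13 without control 2, +0.033 without C-SPION 2 and +0.027 without C-SPION 3. It was led by the fusion genes eat-3 and fzo-1 at +0.65 and +0.45 and the fission gene drp-1 at +0.61, with limma adjusted p between 0.432 and 0.464.

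**Figure D4:**
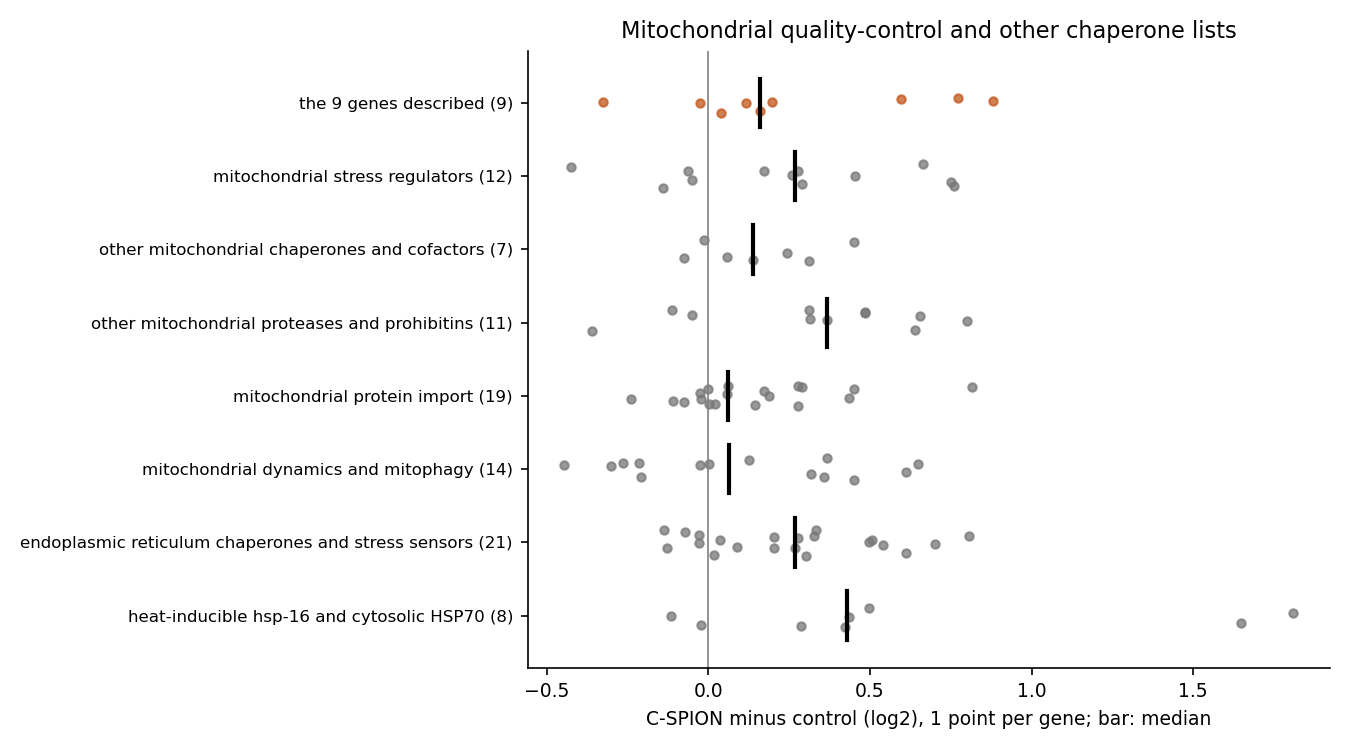
Difference of C-SPION minus control animals on the log2 scale (horizontal axis), 1 point per gene, for the 9 genes (orange) and 7 lists of other quality-control and chaperone genes (grey), with the number measured in brackets and the median as a black bar. Medians run from +0.06 for import to +0.43 for the heat-inducible and cytosolic list, and each list spans 0.

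Chaperone genes of other compartments were read beside the mitochondrial ones. In the endoplasmic reticulum list 16 of 21 genes had positive differences, and the median was +0.27 (+0.12 without control 1). Of the 21, 6 had an unadjusted p under 0.05, all higher, beside 5.22% of all clusters in that direction. That count was 2 without C-SPION 2 or control 1 and 3 without C-SPION 3 or control 2, where the count over all clusters was lower too. The list was led by cdc-48.2 at +0.81 and cdc-48.1 at +0.54, for the segregase that extracts proteins for degradation, and by ero-1, for the oxidase of disulphide formation, at +0.61. In the heat-inducible and cytosolic list 6 of 8 measured genes had positive differences, with a median of +0.43; hsp-1 was first by p, followed by hsp-16.2 at +1.65 and hsf-1, for the heat shock transcription factor, at +0.50. Set beside hsp-6, the HSP70 genes of other compartments were at +0.42 for hsp-1 (cytosol), +0.27 for hsp-3 and +0.51 for hsp-4 (endoplasmic reticulum), +1.81 for hsp-70 (heat-inducible, cytosol) and +0.44 for hsp-110 (an HSP70 relative). The 95% intervals ran from -0.012 to 0.86 for hsp-1, -0.19 to 0.72 for hsp-3, 0.0083 to 1.01 for hsp-4, -0.33 to 3.95 for hsp-70 and -0.51 to 1.38 for hsp-110, all of which overlap the interval of hsp-6. For hsp-70 the signal was 6.15, 6.74 and 7.05 in C-SPION arrays, against 3.64, 3.72 and 7.15 in control arrays. Control 3 alone among the controls was as high as the C-SPION arrays for hsp-70, and hsp-16.2 had the same order, at 11.42, 11.47 and 11.65 in C-SPION arrays, against 8.64, 9.26 and 11.70 in control arrays. In the array with the lowest hsp-60 and lonp-1 signals, hsp-70 and hsp-16.2 were thus at their highest. No difference between the mitochondrial genes and these lists was tested.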

How the data were processed

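The authors' deposited values are log2 signals, made with RMA (Affymetrix Expression Console), as the labels and the submitters' processing notes record; their version, settings and genome build are not stated there. Normalisation between arrays makes each value relative to the other transcripts of that array. Detection calls were not used, so signal over background is not known; precision is limited by having 3 arrays a group. Control 3 was grouped by its title, since its source name repeats that of control 2. Symbols came from the platform annotation, updated by gene identifier to the RefSeq table of WBcel235 (25495 of 25546 clusters with 1 symbol matched).

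All 26192 clusters with a symbol, of 29317, were fitted with limma 3.58.1 in R 4.3.3 (group as the only term, prior degrees of freedom 3.11, two-sided, Benjamini-Hochberg, threshold 0.05). The fit was also run on simulated data with independent noise for each cluster. That run checked the code only, and no result here rests on it. Differences are C-SPION minus control. Lists use the brightest cluster per gene, and hsp-16 and msp genes that share a cluster were not analysed here. Named genes were the 9, up to 3 of each list by smallest unadjusted p, the 3 most alike in pattern to hsp-6, hsp-60 and atfs-1, and 5 HSP70 genes. Members and lists were chosen with earlier results of these data known. Whether arrays of a group stem from separate cultures is not stated; a p-value here reflects the spread among these arrays only, possibly a technical one. No 2 arrays were identical: at the 2 decimals deposited, 158 to 293 of the 26192 clusters had equal values in a pair. Correlations across clusters ran from 0.935 to 0.968, and C-SPION 1 was nearer to control 1 (0.959) than to C-SPION 2 or C-SPION 3.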

Additional observations from a re-analysis of the deposited data

How the results depend on the processing

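The 14 alternatives comprised the replicate block, fits without each of 6 arrays, quantile normalisation, median centring, 2 filters on dim clusters, another variance moderation, array weights and a fit on all clusters; averaging clusters of a gene changes nothing, since each of the 9 genes has 1. Under all 14, 0 of the 9 genes passed, and hsp-6, hsp-60, lonp-1, spg-7 and dve-1 kept their direction. Over them hsp-60 ran from +0.64 to +1.04, lonp-1 from +0.54 to +0.91 and spg-7 from +0.45 to +0.73, with adjusted p from 0.138 to 0.643, 0.161 to 0.664 and 0.161 to 0.680. Leaving out 1 array, 0 to 63 of all clusters passed (63 without C-SPION 1, none of them among the 9 genes), 5 to 8 of the 9 genes were positive, 3 to 4 had groups apart and the median ran from +0.065 to +0.25. Quantile normalisation gave 5 genes with groups apart. The share of all clusters apart was counted for the main fit only. With 1 array left out groups lie apart more easily, so those counts cannot be set against the main fit. The sign changed in some fits without 1 array for 4 genes, over which clpp-1 ran from -0.052 to +0.20, atfs-1 from -0.052 to +0.10, ubl-5 from -0.13 to +0.12 and dnj-10 from -0.043 to +0.28; ubl-5 was also at +0.047 with median centring and +0.085 with array weights. The cause was not tested. Same-numbered arrays of the groups had correlated deviations of 0.222, 0.203 and 0.00786, while arrays of different number ran from -0.266 to 0.0581. The values of 0.222 and 0.203 were thus the highest, but C-SPION 3 correlated higher with control 1 (0.019) than with control 3. No label says that a number marks a shared culture or day, so the main fit used group only. Whether the numbers mark pairs was not tested. The replicate block left 0 clusters past the threshold and hsp-60 at +0.88 (limma adjusted p = 0.344), and changed no call.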

Other observations

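The cytosolic relatives of HSP-60 are the 8 subunits of the chaperonin CCT, which folds actin and tubulin, a list added after the values of hsp-60 were seen. All 8 had positive differences with C-SPIONs, with a median of +0.51, and the groups lay apart in 5, beside 9.4% of all clusters in that direction. Of the 8, 3 had an unadjusted p under 0.05, beside 5.22% of all clusters, and 0 passed. That count was 1 without C-SPION 2 or C-SPION 3, where the count over all clusters was lower too. Without control 3, 6 of 8 were positive. The leading one was cct-8, at 9.19, 9.43 and 9.35 in C-SPION arrays, against 8.50, 8.78 and 8.18 in control arrays, a difference of +0.84 (adjusted p = 0.295 by limma, 95% interval 0.31 to 1.36). As for hsp-60, control 3 was the lowest array for cct-8, and the mean of the 8 genes stood at +0.40, +0.54 and +0.52 in C-SPION arrays and +0.083, +0.22 and -0.31 in control arrays relative to the control mean.

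The genes next to the 9 on the chromosome, by the gene order of WBcel235, gave 18 measured neighbours. Their median difference was +0.098, beside +0.037 over all clusters. Of the 18, 3 had groups apart and higher and 3 apart and lower, beside 9.4% and 9.24% of all clusters. Both neighbours of spg-7 were among the higher ones, Y47G6A.14 at +0.51 and Y47G6A.15 at +0.56, with unadjusted p of 0.079 and 0.063 and limma adjusted p of 0.443 and 0.423. Only 1 of the 18 had an unadjusted p under 0.05, where 7.3% of all clusters were lower at that level. It was nep-26, next to clpp-1, at -1.08 with groups apart and lower (limma adjusted p = 0.324). The neighbours of hsp-60, Y22D7AL.10 and Y22D7AL.4, were at +0.14 and +0.06, and those of lonp-1, ttc-1 and spcs-1, at +0.23 and -0.18. Y22D7AL.10 also stands on the list of other mitochondrial chaperones and cofactors, as its only gene with groups apart (limma adjusted p = 0.780).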
